A study of Mus musculus with 10 samples.

Results

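The cadherin genes described are Cdh1, Cdh2, Cdh3, Cdh4, Cdh6, Cdh10, Cdh11, Cdh13, Cdh15 and Cdh19, chosen by name, 10 of the 46517 genes counted. Their RNA was read in 10 libraries of sorted mouse tumour cells. The tumours were malignant peripheral nerve sheath tumours (MPNST), which are sarcomas of the Schwann cell lineage, kept as 5 allograft models named A, B, C, D and E. From every model came a GFP+ and a GFP- library, where the CGD transgene is expressed in GFP+ cells and not in GFP- cells. All groups share the tumour dissociation with collagenase and a flow gate that removed wild-type and dead cells. The labels do not expand CGD, and the sources used here do not give the driver genotype of the tumours, the host strain, the age or the number of animals behind a model.

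Classical cadherins are calcium-dependent adhesion proteins of the cell surface. Their extracellular repeats bind the same cadherin on the next cell, and the cytoplasmic tail binds p120-catenin and beta-catenin, which link it through alpha-catenin to actin. Type I members (Cdh1, Cdh2, Cdh3, Cdh4 and Cdh15) and type II members (Cdh6, Cdh10, Cdh11 and Cdh19) differ in the first repeat, and Cdh13 has no tail and is held in the membrane by a lipid anchor. In the developing nerve, Cdh19 marks early Schwann cell precursors, N-cadherin (Cdh2) is high in precursors and falls as Schwann cells mature, and E-cadherin (Cdh1) joins the membrane layers of myelinating Schwann cells.

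The promoter sequences are shown for Cdh6 and Cdh10, both type II genes on chromosome 15, because Cdh10 had the same direction between GFP+ and GFP- cells in every model and Cdh6 did not. RefSeq promoters (GRCm38.p6, the assembly called mm10) were matched for 3 of the 10 genes, Cdh6, Cdh10 and Cdh15. Each holds 250 bases before and 50 after the gene start, written 5′ to 3′ on the gene's strand, with every E-box CANNTG in capitals. The Cdh10 window is chr15:18820079-18820378, plus strand, and its RefSeq start lies 1382 bases downstream of the GENCODE gene start. The Cdh6 window is chr15:13173626-13173925, minus strand.
Cdh10: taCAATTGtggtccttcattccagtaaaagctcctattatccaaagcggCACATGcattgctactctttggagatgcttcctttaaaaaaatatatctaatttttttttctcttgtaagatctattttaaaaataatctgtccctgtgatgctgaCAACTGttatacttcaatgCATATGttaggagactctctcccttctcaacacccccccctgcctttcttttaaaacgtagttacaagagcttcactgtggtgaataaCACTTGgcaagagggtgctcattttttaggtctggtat
Cdh6: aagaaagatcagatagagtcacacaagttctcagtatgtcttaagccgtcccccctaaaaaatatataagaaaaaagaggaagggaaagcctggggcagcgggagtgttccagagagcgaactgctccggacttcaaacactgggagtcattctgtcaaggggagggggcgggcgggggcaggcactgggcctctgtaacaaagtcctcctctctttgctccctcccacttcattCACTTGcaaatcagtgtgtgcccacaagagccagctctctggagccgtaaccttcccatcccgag

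The E-box CANNTG, which reads the same on both strands, is a general pattern whose middle letters are free. Sites of SNAIL, ZEB and TWIST family factors fall within this pattern, but a match to it does not name a factor. The pattern occurred 5 times in the Cdh10 window, 1 time in the Cdh6 window and 4 times in the Cdh15 window. Of all 32851 promoters of this length, 72.3% held at least 1 such letter string and 2.10% held at least 5. The SOX core ACAAAG, searched on both strands, occurred 1 time in Cdh6 and 0 times in Cdh10 and Cdh15, and 18.7% of all promoters held it. It shared no base with an E-box. These are letter matches in a short window and say nothing of binding.

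The libraries held 15978673 to 22082207 reads in genes. Levels are CPM, counts scaled to these totals, and TPM, scaled also by exon length, is used wherever different genes are set side by side. The Schwann lineage markers were low in models A and E: Sox10, the factor that specifies Schwann cells, had 2 and 9 reads in their GFP+ cells and 1 and 0 in their GFP- cells. Summed over 9 Schwann markers, the level ran from 4.72 to 305 CPM in GFP+ cells and from 4.83 to 37.1 CPM in GFP- cells. Fibroblast markers (5 genes, among them Col1a1 and Dcn) were abundant in every library, with sums of 16075 to 28991 CPM over the GFP+ and 15987 to 31356 CPM over the GFP- libraries. The 4 endothelial markers summed to at most 3.19 CPM and the immune marker Ptprc, which encodes CD45, was at most 0.45 CPM. Perineurial markers summed to 294 to 555 CPM in the GFP+ and 272 to 662 CPM in the GFP- libraries, but Krt19 and Lypd2 among them were at or near 0. Neuronal markers reached 14.5 CPM in GFP+ and 21.3 CPM in GFP- libraries, both in model D, and the 4 immune markers, most of it Cd68, reached 15.7 CPM in GFP+ and 17.1 CPM in GFP- libraries.

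Per exon length, 3 cadherins made up most of the repertoire. Cdh13 averaged 172 TPM over the 10 libraries, Cdh11 159 TPM and Cdh2 82.3 TPM. Cdh10 averaged 17.7 TPM, Cdh6 7.79, Cdh19 5.64, Cdh3 3.11 and Cdh4 1.70 TPM. Cdh15 and Cdh1 were the lowest, at 0.70 and 0.51 TPM. Together Cdh13, Cdh11 and Cdh2 held 77.7% to 98.3% of the summed TPM of the 10 genes. That sum was 458 ± 133 TPM in GFP+ and 444 ± 166 TPM in GFP- cells (n = 5 each, SD). By pair it was higher in GFP+ cells in model A (594 against 292 TPM in GFP- cells) and slightly so in E (267 against 248). It was lower in GFP+ cells in B (449 against 555), C (570 against 628) and D (406 against 495). The higher mean in GFP+ cells thus rested on model A, and the sum was not tested. In bulk RNA, fewer cells that express a gene and less RNA per cell cannot be told apart.

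The leading gene differed between tumour models and, in A and B, between the populations of a model. In model C, Cdh13 took 74.1% of the summed TPM in GFP+ and 72.3% in GFP- cells. In model E it led with 47.6% in GFP+ and 45.8% in GFP- cells. In model D, Cdh11 led with 37.4% in GFP+ and 58.2% in GFP- cells. In model B, Cdh2 led in GFP+ cells with 40.2%, and Cdh11 led in GFP- cells with 50.9%. In model A, Cdh11 led in GFP+ cells with 46.2%, and in GFP- cells Cdh13 and Cdh11 were nearly equal, at 37.6% and 37.5%. The Cdh11 to Cdh13 ratio in TPM was 1.60 in GFP+ against 4.89 in GFP- cells of B, and 1.83 against 4.72 in D. In model C it was 0.17 in GFP+ and 0.23 in GFP- cells, and in model E 0.64 in GFP+ and 0.74 in GFP- cells. Model A went the other way, with 1.34 in GFP+ and 0.998 in GFP- cells.

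**Figure D1:**
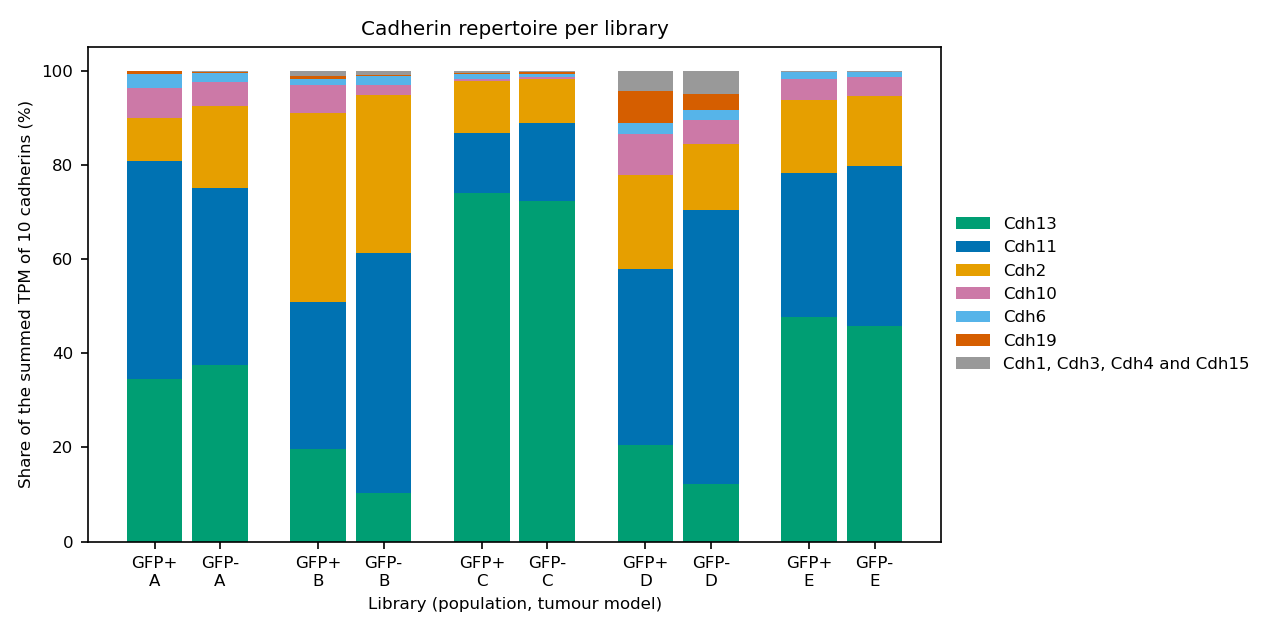
Share of each gene in the summed TPM of the 10 cadherins (percent, y axis) in each library (x axis, GFP+ left of GFP- within each tumour model). Cdh13 fills 74.1% of the GFP+ and 72.3% of the GFP- bar of model C, Cdh11 leads in the GFP- bars of B and D, and the grey top, 4 low genes together, is tallest in D.

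Cdh2 encodes N-cadherin, the neural and mesenchymal type I cadherin (ENSMUSG00000024304, mm10 chromosome 18, 16588877 to 16809246). In GFP+ cells of models A to E it stood at 115, 377, 145, 179 and 98.5 CPM, and in GFP- cells at 114, 381, 131, 152 and 84.99 CPM. Both libraries of model B lay above all others, and within each model the populations lay close together. Between the populations the log2 difference was 0.08 (SE 0.08; adjusted p = 0.80, edgeR's quasi-likelihood test over all genes), with 3 pairs higher and 2 lower in GFP+ cells. Pair counts and log2 pair differences here and for the other genes use CPM rescaled by edgeR's TMM factors. On this scale Cdh2 in model A differed by -0.02, while in CPM without these factors its GFP+ library was the higher, as in C, D and E. The largest difference within a pair was 0.23 on the log2 scale, in model E, against a span of 2.01 between the highest and lowest model.

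Cdh13, known as T-cadherin or H-cadherin, is the lipid-anchored member and a receptor for adiponectin and LDL (ENSMUSG00000031841, chromosome 8, 118283733 to 119324921). It stood at 599, 256, 1337, 255 and 422 CPM in GFP+ cells of models A to E and at 342, 165, 1407, 187 and 365 CPM in GFP- cells. Model C was high in both populations, and B and D were the lowest. GFP+ cells were higher in pairs A, B, D and E and slightly lower in C. The log2 difference was 0.37 (SE 0.14; unadjusted p = 0.0264, adjusted p = 0.479, edgeR's quasi-likelihood test), and it was 0.19 in a fit without the pairing. The fibroblast proteoglycan gene Dcn was also highest in model C, with 10149 CPM in the GFP+ and 9345 CPM in the GFP- library. In the other models it had 68.6 to 2622 CPM. The summed fibroblast markers were not highest in C, with 18157 CPM in its GFP+ and 18961 CPM in its GFP- library. Their highest sums were 28991 CPM in the GFP+ library of A and 31356 CPM in the GFP- library of D. The part of these markers in the Cdh13 level was not tested. Endothelial cells also express Cdh13. Their 4 markers summed to at most 2.66 CPM in GFP+ and 3.19 CPM in GFP- libraries, and their part in the Cdh13 level was not tested.

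Cdh11, the mesenchymal type II cadherin also called OB-cadherin (ENSMUSG00000031673, chromosome 8, 102632095 to 102785642), changed direction between models. It stood at 634, 324, 180, 371 and 215 CPM in GFP+ cells of models A to E and at 270, 641, 255, 701 and 213 CPM in GFP- cells. GFP+ cells were 2.34 times as high as GFP- cells in model A, and GFP- cells were 1.98 times as high in B and 1.89 times in D. In model E the populations were level. The log2 difference over all pairs was -0.28 (SE 0.32; adjusted p = 0.843, edgeR's quasi-likelihood test). It was -0.64 without model A (adjusted p = 0.40), -0.08 without B, -0.10 without D. The summed fibroblast markers had 28991 CPM among GFP+ and 21376 CPM among GFP- cells of A, 20734 and 26324 in B, and 23140 and 31356 in D. In these models the sums lay on the same side as Cdh11. Dcn, a member of that list, lay on the other side in each of them. It had 1790 CPM among GFP+ and 1910 CPM among GFP- cells of A, 140 and 68.6 in B, and 1462 and 1046 in D. The part of the fibroblast markers in the Cdh11 differences was not tested.

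Cdh6, a type II cadherin of the neural crest and kidney known as K-cadherin (ENSMUSG00000039385, chromosome 15, 13028701 to 13173675), stood at 42.2, 13.1, 13.1, 25.2 and 11.1 CPM in GFP+ cells of models A to E. In GFP- cells it stood at 14.0, 24.5, 11.7, 27.5 and 6.73 CPM. As with Cdh11, the GFP+ library was the higher in A and the lower in B. The log2 difference was 0.25 (SE 0.33; adjusted p = 0.871, edgeR's quasi-likelihood test), and it turned to -0.09 without model A and was 0.56 without B and 0.11 without E. The ranges of the populations overlapped.

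Cdh10, a type II cadherin of the brain (ENSMUSG00000022321, chromosome 15, 18818947 to 19014236), was higher in GFP+ cells in 5 of 5 pairs. It stood at 95.9, 68.9, 7.01, 97.2 and 34.4 CPM in GFP+ cells of models A to E and at 41.7, 30.6, 5.67, 68.6 and 29.1 CPM in GFP- cells. Model C was the lowest in both populations. The excess was 2.30-fold in A, 2.25-fold in B and 1.42-fold in D, and 1.24-fold and 1.18-fold in C and E. The log2 difference was 0.67 (SE 0.16; unadjusted p = 0.00387, adjusted p = 0.363, edgeR's quasi-likelihood test), so it did not pass over all genes. DESeq2 with the same pairing passed it (log2 0.67, adjusted p = 0.0281), and called 195 of the 13986 tested genes. Without the pairing the adjusted p of Cdh10 was 1 by edgeR. Over the 13 alternatives the adjusted p ran from 0.0281 to 1, and DESeq2 was the only one under 0.05. Of 9 Schwann lineage markers 8 were tested, all 8 higher in GFP+ cells (median log2 difference 1.53, 6 with an unadjusted p under 0.05, 0 called by edgeR). Their part in the Cdh10 difference was not tested, and their sums in model A, where Cdh10 differed most, were 4.72 CPM among GFP+ and 4.83 CPM among GFP- cells.

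Cdh19 encodes the type II cadherin of Schwann cell precursors (ENSMUSG00000047216, chromosome 1, 110888326 to 110977584). It stood at 4.22, 2.72, 2.66, 31.8 and 0.39 CPM in GFP+ cells of models A to E and at 0.72, 2.13, 1.98, 19.0 and 0 CPM in GFP- cells. Model D stood above all others, with 580 reads in GFP+ and 304 in GFP- cells. Cdh19 was higher in GFP+ cells in 5 of 5 pairs, but pair E rested on 8 reads against 0. Set against 3 reads, the limit a count of 0 allows, the 8 reads were 2.37 times as high in CPM. This ratio takes the 8 reads as exact, so it is not a lower limit of the pair E excess. In pair A, 76 reads stood against 14. The log2 difference was 1.02 (SE 0.42; unadjusted p = 0.0422, adjusted p = 0.534, edgeR's quasi-likelihood test), and 0.64 (SE 0.36) without model A.

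Beside this stand the levels of Sox10. In GFP+ cells of model A, Cdh19 had 76 reads and Sox10 had 2. Model C had 968 Sox10 reads in GFP+ cells and 49 of Cdh19. Model D had the highest level of each in GFP+ cells, 31.8 CPM of Cdh19 and 112 CPM of Sox10. Over the 9 Schwann markers, D had 305 CPM among GFP+ and 29.0 CPM among GFP- cells, a wider gap than that of Cdh19. The part of Schwann-type cells in the Cdh19 difference was not tested.

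The other 4 members did not pass the filter on low counts and were not tested with the others. Cdh3, which encodes P-cadherin of basal epithelia (ENSMUSG00000061048, chromosome 8, 106510891 to 106557297), had 3, 56, 3, 254 and 8 reads in GFP+ cells of models A to E and 9, 50, 2, 258 and 7 in GFP- cells. Its reads lay mostly in model D and were nearly equal between the populations there. Cdh4, which encodes the retinal type I cadherin (ENSMUSG00000000305, chromosome 2, 179442431 to 179899373), had 1, 17, 1, 165 and 11 reads in GFP+ cells and 1, 85, 2, 300 and 3 in GFP- cells. GFP- cells were thus 4.25 times as high in CPM in B and 2.08 times in D. With no filter, the edgeR fit gave Cdh4 a log2 difference of -0.98 (SE 0.45, adjusted p = 0.709).

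Cdh1 encodes E-cadherin (ENSMUSG00000000303, chromosome 8, 106603351 to 106670246) and had 4, 5, 51, 2 and 0 reads in GFP+ cells of models A to E and 2, 2, 47, 4 and 0 in GFP- cells. Model C held most of these 117 reads, as 2.77 CPM in the GFP+ and 2.59 CPM in the GFP- library. In model E, 0 reads allow a level of up to 0.14 CPM among GFP+ and 0.16 CPM among GFP- cells. The epithelial surface gene Epcam was at 0.92 to 4.39 CPM and the epithelial splicing factor gene Esrp1 at 1 read or fewer per library. Epcam was highest in model D, at 4.39 CPM in the GFP+ and 3.88 CPM in the GFP- library. Summed over 8 epithelial markers, mostly Krt8 and Krt18, the level was 23.96 to 231 CPM in GFP+ and 5.16 to 260 CPM in GFP- libraries. This sum was highest in model C in both. It was also 218 CPM in GFP+ cells of E, where Cdh1 had 0 reads, and 219 CPM in GFP- cells of A, where Cdh1 had 2. The part of these markers in the Cdh1 level was not tested. The 4 keratinocyte markers reached 4.73 CPM in GFP+ and 4.69 CPM in GFP- libraries.

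Cdh1 and Cdh3 are neighbours on the same strand, 46054 bases apart, and their reads lay in different models. Model C had 51 and 47 reads of Cdh1 but 3 and 2 of Cdh3, while model D had 2 and 4 of Cdh1 but 254 and 258 of Cdh3 (the GFP+ library first). Besides these 2, chromosome 8 carries Cdh11, Cdh13 and Cdh15, so 5 of the 10 members are there.

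Cdh15 encodes M-cadherin of muscle precursors (ENSMUSG00000031962, chromosome 8, 122847966 to 122867397). It had 4, 35, 1, 25 and 1 reads in GFP+ cells of models A to E and 3, 11, 1, 22 and 8 in GFP- cells. B and D were the higher models. The muscle regulators were at or near 0 in the GFP+ libraries, where Pax7, Myod1 and Myog had 0 reads, and the GFP- library of D had 11, 2 and 5 of them.

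**Figure D2:**
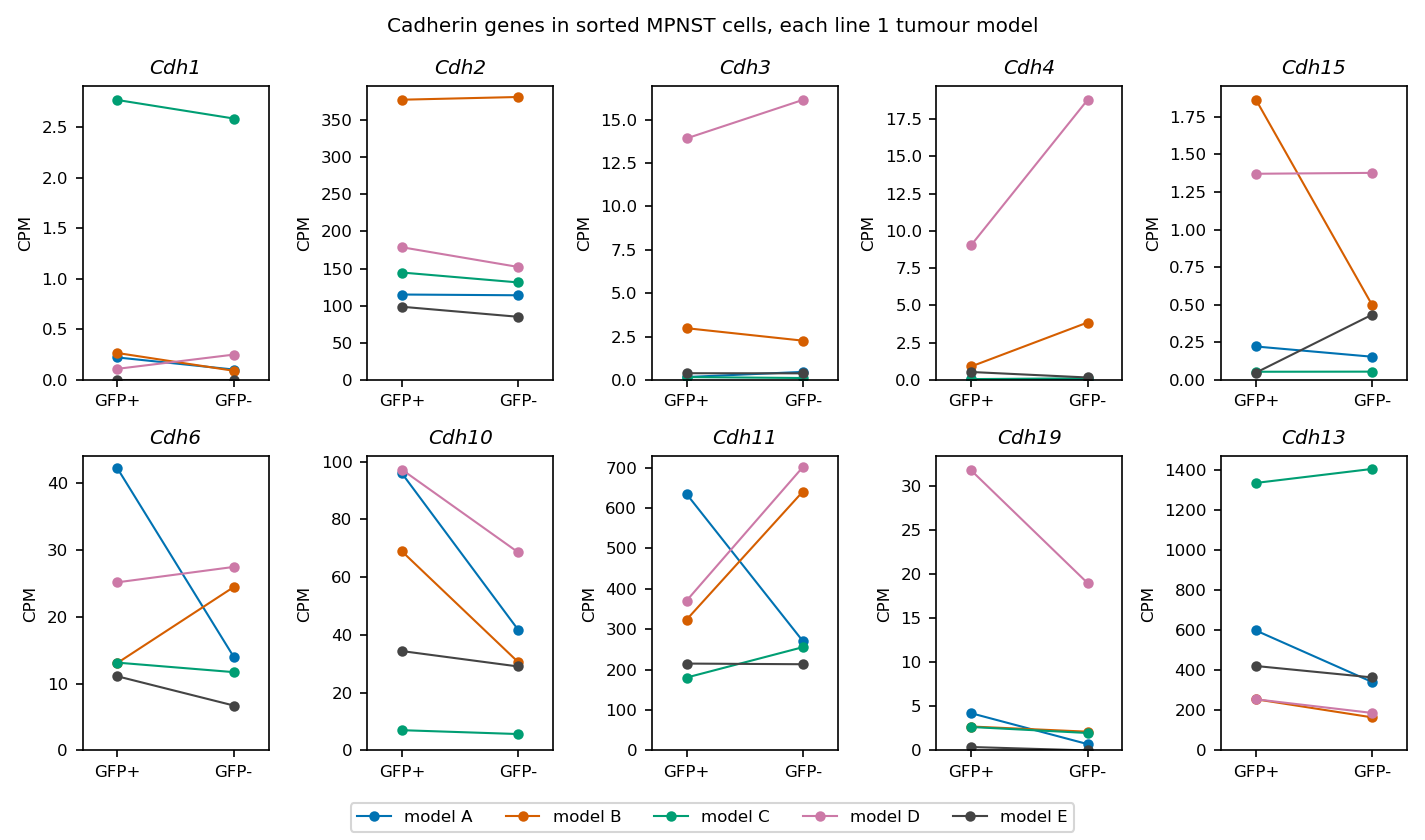
Level of each of the 10 cadherin genes in CPM (y axis, from 0, scaled per gene), with GFP+ left and GFP- right and a line for each tumour model. The lines of Cdh10 and Cdh19 all fall to the right, those of Cdh11 cross, and model B stands above the others for Cdh2, C for Cdh1 and Cdh13, and D for Cdh3, Cdh4 and Cdh19.

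Over all members, the comparison of GFP+ with GFP- cells of the same model gave no call. Of the 10 members 6 were tested, and 0 passed an adjusted p of 0.05 by edgeR's quasi-likelihood test, where 0% of all 13986 tested genes passed. At an unadjusted p under 0.05 there were 3 members, Cdh10, Cdh13 and Cdh19, all higher in GFP+ cells, against 8.99% of all tested genes. Cdh10 and Cdh19 were higher in 5 of 5 pairs, as were 5.12% of tested genes, and no tested member was lower in 5 of 5 pairs, as were 4.68% of tested genes. On the TMM scale, 3 members with Cdh13 were higher in at least 4 of 5 pairs, where 21.4% of tested genes were. Without the TMM factors Cdh2 would be counted too, since its model A pair changes sign. The median log2 difference of the 6 was 0.31, beside -0.0028 over all tested genes. The filter needs reads in enough libraries, so the 4 low members are not in these counts.

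**Figure D3:**
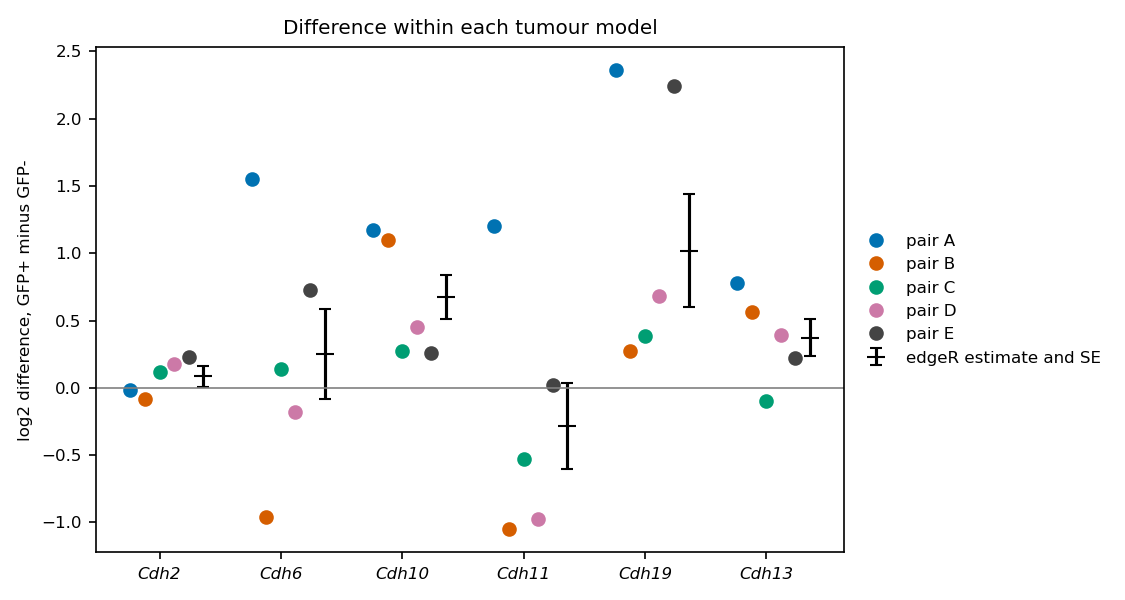
The log2 difference of GFP+ minus GFP- cells (y axis) for the 6 tested cadherin genes, 1 point per tumour model, with edgeR's estimate and its standard error in black. Cdh10 and Cdh19 have all 5 points above 0, Cdh2 stays near 0, and Cdh6 and Cdh11 have points on both sides, with model A highest.

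Between the tumour models, levels of 4 of the 6 tested members differed by edgeR's quasi-likelihood test on the model terms. The 2 libraries of a model come from the same tumour model, so this test compares these tumours only. The adjusted p was 0.000385 for Cdh2, 0.000601 for Cdh13, 0.000932 for Cdh10 and 0.00191 for Cdh19. This share stands beside 54.7% of all tested genes that passed the same test. Cdh19 no longer passed without model D (adjusted p = 0.0504). Cdh6 and Cdh11 did not pass (adjusted p = 0.102 and 0.116), but passed without model A (0.0486 and 0.0151), and Cdh6 also without B (0.0308). The span of the other calls was smaller without 1 model: that of Cdh2 was 0.81 without B, that of Cdh10 1.33 without C and that of Cdh13 1.13 without C, on the log2 scale, and each was still called. The fitted span of Cdh19 was 7.02, and 3.55 without model E and 3.77 without D.

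Measured as the log2 span between the highest and the lowest model mean, Cdh11 varied least, at 1.24, and Cdh6 spanned 1.55. Cdh2 spanned 2.01, Cdh13 2.75 and Cdh10 3.66. For Cdh19 the model means ran from 0.19 CPM in E to 25.4 CPM in D. The median span over all tested genes was 0.94, and 35.7% of them spanned more than Cdh11 while 5.25% spanned more than Cdh10.

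The catenins bind the cadherin tail or link it to actin. Their 11 tested genes of 12 had a median span between models of 0.52, beside 2.38 for the 6 tested members and 0.94 for all genes. Single catenins spanned more, with Ctnna2 at 3.99, Jup at 2.02 and Ctnnd2 at 1.80. Between the models 6 of the 11 passed, beside 54.7% of all tested genes. Ctnnb1, encoding beta-catenin, stood at 634 ± 80.8 CPM among GFP+ and 649 ± 70.9 CPM among GFP- cells (n = 5 each, SD), and Ctnna1, encoding alpha-catenin, at 433 ± 48.7 CPM among GFP+ and 406 ± 29.2 CPM among GFP- cells. Of the 11, 0 passed over all genes between the populations, 1 had an unadjusted p under 0.05 as the higher and 1 as the lower, and the median log2 difference was 0.06. The higher one was Ctnnd2, encoding the neural delta-catenin, with a log2 difference of 0.67 (SE 0.21, adjusted p = 0.449, edgeR). It had 20.7, 20.3, 6.19, 25.6 and 10.7 CPM in GFP+ cells of models A to E and 7.87, 9.28, 6.44, 19.6 and 6.94 CPM in GFP- cells, higher in 4 of 5 pairs. The lower one was Ctnnal1, encoding a relative of alpha-catenin, at -0.28 (SE 0.11, adjusted p = 0.524).

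Among the listed regulators of E-cadherin transcription, those of highest level were repressors. Twist1 averaged 303 TPM, Tcf3 225, Snai1 221 and Snai2 161 TPM over the 10 libraries. The repressor gene Snai3 averaged 0.49 TPM, and the epithelial activators Grhl2 and Ovol2 were at 0.05 and 0 TPM. Of 15 listed genes 8 were tested, 0 passed between GFP+ and GFP- cells, 0 had an unadjusted p under 0.05, and the median log2 difference was -0.05. Snai2, which encodes SLUG, varied most between the models, from 26.5 to 169 CPM in GFP+ and from 33.0 to 157 CPM in GFP- cells. It was highest in the GFP+ cells of model C, the model that held most Cdh1 reads. The part of these regulators in the Cdh1 level was not tested. Zeb1 was higher in GFP+ cells in 5 of 5 pairs by a log2 difference of 0.12 (SE 0.07, adjusted p = 0.643, edgeR).

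Among 12 other cadherins, 4 were tested and 0 passed between the populations. Cdh18, a brain type II cadherin, had the smallest p of them, with a log2 difference of 0.93 (SE 0.31, adjusted p = 0.461, edgeR) and more in GFP+ cells in 5 of 5 pairs. It had 95, 31, 26, 71 and 44 reads in GFP+ cells of models A to E and 42, 29, 6, 54 and 15 in GFP- cells, so pairs rested on few reads. Cdh24 averaged 20.3 TPM and Cdh26 13.6 TPM, above Cdh6 per length. The vascular Cdh5 was at most 1.13 CPM and the kidney cadherin gene Cdh16 had 0 reads. Cdh16 and Cdh17 in this list belong to another cadherin class, without the catenin-binding tail, and neither was tested. Cdh7, which lies 748169 bases from Cdh19 on the other strand, had at most 16 reads in a library.

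The desmosomal list had 5 of 10 genes tested, 0 called, and a median log2 difference of 0.77. Dsp, encoding desmoplakin, had a log2 difference of 0.77 (SE 0.25, adjusted p = 0.453, edgeR) and Dsc2, encoding desmocollin-2, 0.82 (SE 0.32, adjusted p = 0.52). Both were higher in 4 of 5 pairs. Of 8 nectin and nectin-like genes 7 were tested and 0 called, with a median of 0.10. Cadm4, encoding a Schwann cell partner of axonal adhesion proteins, differed by 1.56 (SE 0.48, adjusted p = 0.438, edgeR) and was higher in 5 of 5 pairs.

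No protease that cuts cadherins was called between the populations. Of 14 genes 13 were tested, 0 were called, 0 had an unadjusted p under 0.05, and the median log2 difference was -0.03. Adam10, the main sheddase of N-cadherin and E-cadherin, stood at 191 ± 27.9 CPM among GFP+ and 186 ± 47.8 CPM among GFP- cells (n = 5 each, SD). Mmp14, a membrane metalloprotease, stood at 1195 ± 256 CPM among GFP+ and 1473 ± 205 CPM among GFP- cells and was lower in GFP+ cells in 5 of 5 pairs (log2 -0.35, SE 0.16, adjusted p = 0.583, edgeR). Among 9 genes of cadherin turnover, all tested and 0 called, the median was -0.00415. The receptor phosphatase gene Ptprf differed by 0.50 on the log2 scale (SE 0.13, adjusted p = 0.392, edgeR).

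**Figure D4:**
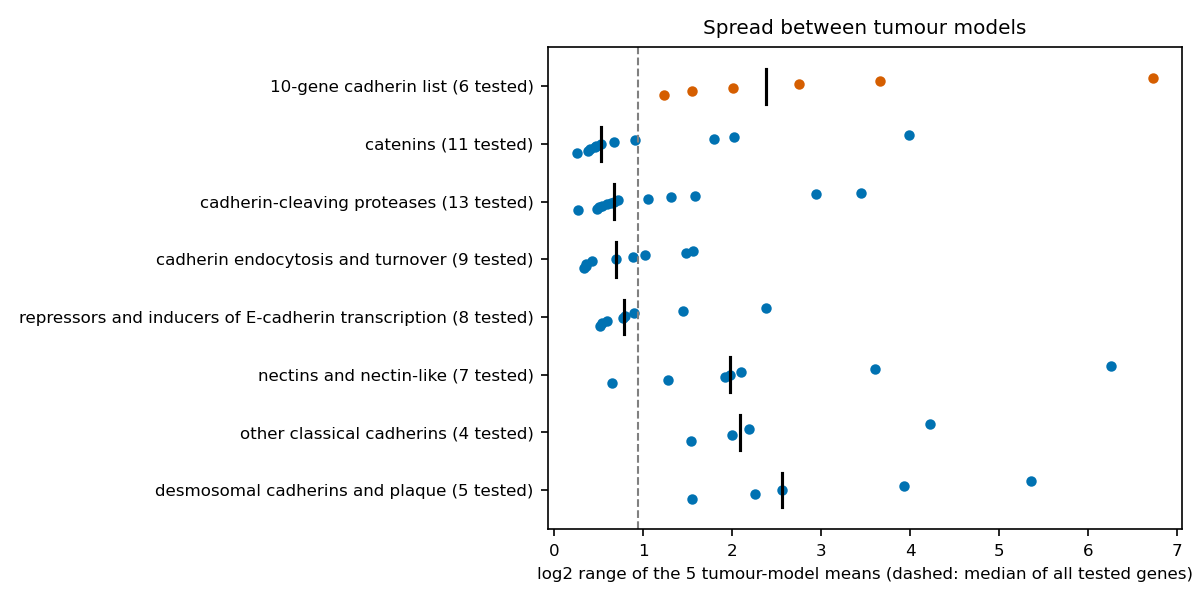
The log2 span between the highest and the lowest tumour-model mean (x axis) for each tested gene of the cadherin list (orange) and of 7 related lists (blue), with the median of each list as a black bar and that of all tested genes as a dashed line at 0.94. Most catenins lie left of the dashed line, and the 6 tested cadherins lie right of it.

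The genes with the profile most like each member's were found from log2 CPM centred on each gene's own mean, by the mean absolute difference over the 10 libraries, which come from 5 tumours. For Cdh2 the closest were Zfp105 (0.15), Agpat2 (0.19) and Lrrc8d (0.19), where the median gene lay 0.67 away. For Cdh11 they were Robo1 (0.18), Kifc2 (0.20) and Setbp1 (0.22), with a median of 0.69. Kifc2 (0.25) was also the closest to Cdh6, before Gpc4 and Cacnb3 (both 0.26), with a median of 0.73. Basp1 (0.27), Nek10 (0.28) and Gabra4 (0.30) were closest to Cdh10, with a median of 1.13, and Fut4 (0.20), Zfp52 (0.26) and Dus2 (0.27) to Cdh13, with a median of 0.89.

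Cdh3 was nearest to 6330403K07Rik (0.51), Gm14396 (0.64) and Hoxa10 (0.64), with a median gene at 1.998. Cdh4 was nearest to Hoxa9 (0.61), 6330403K07Rik (0.74) and C1qtnf2 (0.76), with a median of 2.16. Cdh19 was nearest to Afap1l2 (0.74), Matn4 (0.77) and Syt1 (0.77), against a median of 1.74. Many genes share a contrast between 5 tumours, so a close profile is a description of these libraries.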

How the data were processed

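RNA was sequenced from 10 libraries, and each deposited table holds unnormalized read counts by gene in the layout of STAR gene counts. Per the submitters' processing notes, STAR 2.4.2.8 and build mm10 were used. The sources used here do not give the annotation or library kit. Counts of the second strand setting were taken (96.9% to 97.1% of stranded gene reads). Summary lines (21.3% to 24.3% of reads) were left out. GENCODE vM21 gave symbols, positions and exon lengths for 46005 of 46517 identifiers. Multiply mapped reads are summed apart.

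The test was edgeR 4.0.16 (R 4.3.3) quasi-likelihood with TMM, filterByExpr (13986 genes), and the tumour model as block, as the series' design text states a paired comparison. A gene was called when its p, Benjamini-Hochberg adjusted over all tested genes, was under 0.05. Same-lettered libraries come from the same model, and their deviations from the population means correlated across genes at 0.628 to 0.867. The model test used the 4 model terms with population as covariate. Pair differences and profiles used log2 CPM with a prior count of 2. SE came from the F statistic. Alternatives were no block, RLE factors, library totals, no or a stricter filter, DESeq2 1.42.0, limma 3.58.1 voom, unstranded counts and leaving out each model. The fit was also run on simulated counts, where a planted GFP difference was the same in every model, unlike in these data.

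Members and lists were chosen with earlier results of these data known. Named besides the members are list genes of smallest p or highest TPM, the 3 closest profiles and neighbouring cadherins. Marker genes, Cdh5, Cdh16, Snai3, Grhl2 and Ovol2 were named after their values were seen. Whether a model is 1 animal is not given. P-values of the GFP comparison measure its difference against the spread of that difference between these tumours. The model test sets level differences against this same spread, with the 2 libraries of a model as replicates. Its p-values do not measure the spread between animals of a model. Intervals and limits cover counting error only.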

Additional observations from a re-analysis of the deposited data

Results flagged for a closer look

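In 26 groups of 5 values (the CPM of 10 members in each population and the pair differences of 6), 11 had 1 value far from the other 4 by Dixon's test, where chance flags about 1 in 20 groups of independent, normally distributed values. These CPM are skewed, and each gene was measured in both populations of the same 5 tumours, so the 11 come from 6 genes and are not independent. All 11 were levels and none was a pair difference. Model D stood high for Cdh3 (13.9 CPM in GFP+ and 16.1 in GFP- cells), Cdh4 (9.05 in GFP+ and 18.8 in GFP- cells) and Cdh19 (31.8 in GFP+ and 19.0 in GFP- cells). Model B stood high for Cdh2 (377 in GFP+ and 381 in GFP- cells). Model C stood high for Cdh1 (2.77 in GFP+ and 2.59 in GFP- cells) and for Cdh13 in GFP- cells (1407 CPM). For 5 of these genes both populations of the same model were the far ones. A technical source of these levels was not tested.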

How the results depend on the processing

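No gene passed between GFP+ and GFP- cells in the paired fit, and none passed with no replicate block (0 genes), RLE factors, library totals, a stricter filter, voom, unstranded counts or without any 1 model. With no filter on low counts 47 genes were called, and with DESeq2 195. The cause was not tested. An unadjusted p under 0.05 was found for 1257 genes by edgeR and 1206 by DESeq2. Between models 7655 genes were called, and 4038 (without C) to 7545 (without A) with 1 model left out. Of the 78 values of member differences under alternatives, 76 kept direction and side of the threshold. Where an alternative called 0 genes, no member could pass, so only the direction could change there. Cdh10 passed with DESeq2. The Cdh6 difference reversed to -0.088 without A and was 0.56 without B. Cdh10 was 0.75 and Cdh13 0.19 with no replicate block. Depth limits Cdh1, Cdh3, Cdh4, Cdh15 and, in model E, Cdh19.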
